A study of Mus musculus with 2 samples.

Results

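The genes described here are the molecular chaperones of the mouse adrenal gland that carry the names of heat shock proteins, of DnaJ proteins and of the CCT chaperonin. They were chosen by symbol alone: every gene with reads whose name begins with Hsp, with Dnaja, Dnajb or Dnajc and a number, or with Cct and a number, plus Tcp1. Names with a hyphen, such as those of pseudogenes, were left out. This gave 77 of the 18177 annotated genes with reads. The samples were 2 long-read RNA libraries, replicates 1 and 2, of adrenal gland from male B6CASTF1/J mice aged 14 days, an F1 hybrid of the C57BL/6 and CAST strains. Both libraries belong to 1 group with the same strain, sex, age and tissue, and no treatment is named. The labels give both the same donor record and mention several males, without saying whether tissue was pooled or whether the libraries came from separate animals, so a difference between them may be technical, and the p-values below rest on the counting error of reads alone.

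Chaperones bind unfolded segments of other proteins and keep them from aggregating. Hsp70 proteins do so in cycles of ATP hydrolysis that DnaJ proteins start and nucleotide exchange factors such as the Hsp110 proteins end, Hsp90 acts later on clients that include the steroid hormone receptors, and the chaperonins Hsp60 with Hsp10 and CCT fold proteins inside a closed chamber. Each compartment has its own members, and in the adrenal cortex the mitochondrion and the endoplasmic reticulum, where these chaperones work, also hold the enzymes of steroid synthesis. A few of the 77 names do not belong to chaperones: Hspg2 encodes perlecan, a proteoglycan of basement membranes, Hspb11 a component of the transport machinery of cilia, and Hspbp1 and Hspbap1 encode binding partners of heat shock proteins.

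After removal of the spike-in RNAs the libraries held 964815 and 985101 reads, of which 13284 (1.38%) and 12971 (1.32%) came from the 77 genes. A level is given as counts per 1000000 non-spike reads (CPM). One long read stands for about 1 molecule, so a level was not divided by length. All 7 steroidogenic markers of the adrenal cortex were read, with sums of 40838 and 40763 CPM, but single markers differed: Cyp11b1 (ratio of replicate 2 over replicate 1, 0.782), Cyp21a1 (0.861) and Star (0.936) were higher in replicate 1 and Cyp11a1 (1.16) in replicate 2. Chromaffin markers of the medulla summed to 9138 and 8873 CPM, with 2 of 6 higher in replicate 1. Replicate 2 stood apart in its liver genes: all 8 hepatocyte markers were higher there, none was at 0 in either library, and they summed to 754 CPM and 15655 CPM. Immediate early genes were also higher in replicate 2, where 4 of 10 tested passed the threshold and the sum was 2243 CPM against 1511 CPM. Neuron markers were higher in replicate 1 (4 of 4, sums of 155 and 38.6 CPM), as were 2 of 3 tested muscle markers (list sums of 121 and 46.7 CPM). Of 5 endothelial markers only Tie1 passed, higher in replicate 1 at 106 and 56.8 CPM (list sums of 249 and 148 CPM). Of the erythroid markers 2 of 5 were higher in replicate 1, and no marker of brown fat (5 tested) or macrophages (3 tested) passed. After TMM scaling, which sets the typical gene equal between libraries, the steroidogenic calls became 1 higher in replicate 1 (Cyp11b1, ratio 0.870) and 3 in replicate 2, the ratio of Star turned to 1.04, and the chromaffin, erythroid and brown fat lists had 2, 3 and 3 calls, all higher in replicate 2. Each difference between libraries below runs alongside these, and their part in it was not tested. In such bulk tissue, fewer cells of a type and less RNA per cell cannot be told apart.

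The chaperone reads were concentrated in a few genes. The 10 highest genes held 63.6% of them, 28 genes exceeded 100 CPM, and 3 exceeded 1000 CPM. Those 3 were Hspa8, Hspd1 and Hsp90ab1, whose products are the constitutive Hsp70 of the cytosol, the mitochondrial Hsp60 and the constitutive Hsp90 of the cytosol. By family, the summed level was 4017 ± 72.9 CPM (SD, n = 2, as for all values written with ±) for the 12 Hsp70 genes, 2322 ± 185 for Hsp60 and Hsp10, 2251 ± 272 for the 9 CCT genes, 1593 ± 28.5 for the 3 Hsp90 genes, 1568 ± 45.1 for the 26 Dnajc genes, 787 ± 49.3 for the 4 Dnaja genes, 589 ± 1.41 for the 12 Dnajb genes and 182 ± 19.8 for the 5 genes with Hspb names. The sums of Hsp60 with Hsp10 and of CCT lay within 1 SD of each other, and so did those of Hsp90 and Dnajc.

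**Figure D1:**
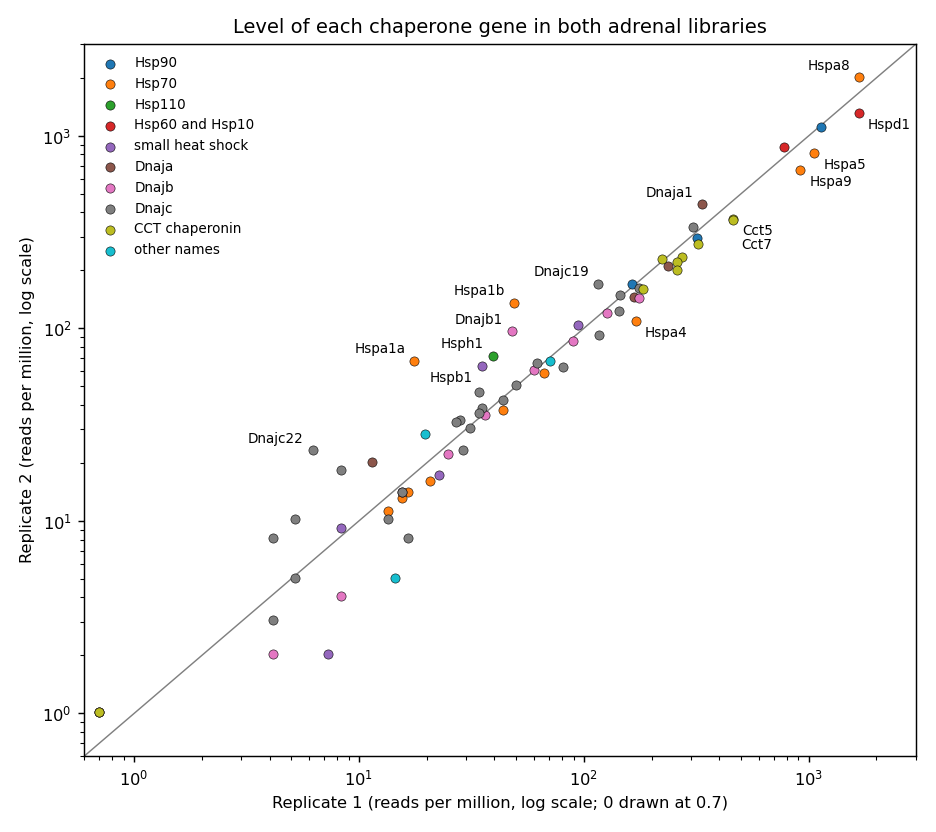
Level of each of the 77 genes in replicate 1 (horizontal axis) and replicate 2 (vertical axis), in CPM on log scales, coloured by family, with a grey line of equal levels. The 15 named genes passed the exact binomial test between libraries. Hspa1a, Hspa1b, Dnajb1 and Dnajc22 lie farthest above the line among them.

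To ask whether the chaperone levels differed between the libraries, each gene's reads were compared with the libraries' shares of all non-spike reads by a two-sided exact binomial test, adjusted by the Benjamini-Hochberg method over all 11094 genes with at least 10 reads. Of the 71 chaperone genes tested, 15 passed an adjusted p of 0.05, a share of 21.1% against 9.17% of all genes tested. The test has more power for genes with more reads, so part of this gap may come from depth. When at least 50 reads were asked, 15 of 51 chaperones (29.4%) and 855 of 5894 genes passed. Of the 15, 9 were higher in replicate 2 (background 4.35% of genes tested) and 6 were higher in replicate 1 (background 4.81%). The other 56 gave no call. On a log2 scale, with 0.5 reads added to each count, the median ratio (replicate 2 over replicate 1, as for every ratio given) was -0.05 for the chaperones and -0.15 for all genes tested. TMM scaling moved the median of all genes to 0.00 and that of the chaperones to 0.10. It gave 10 chaperones higher in replicate 2 and 3 higher in replicate 1, beside 7.86% of all genes in either direction, 5.99% higher in replicate 2 and 1.87% higher in replicate 1.

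**Figure D2:**
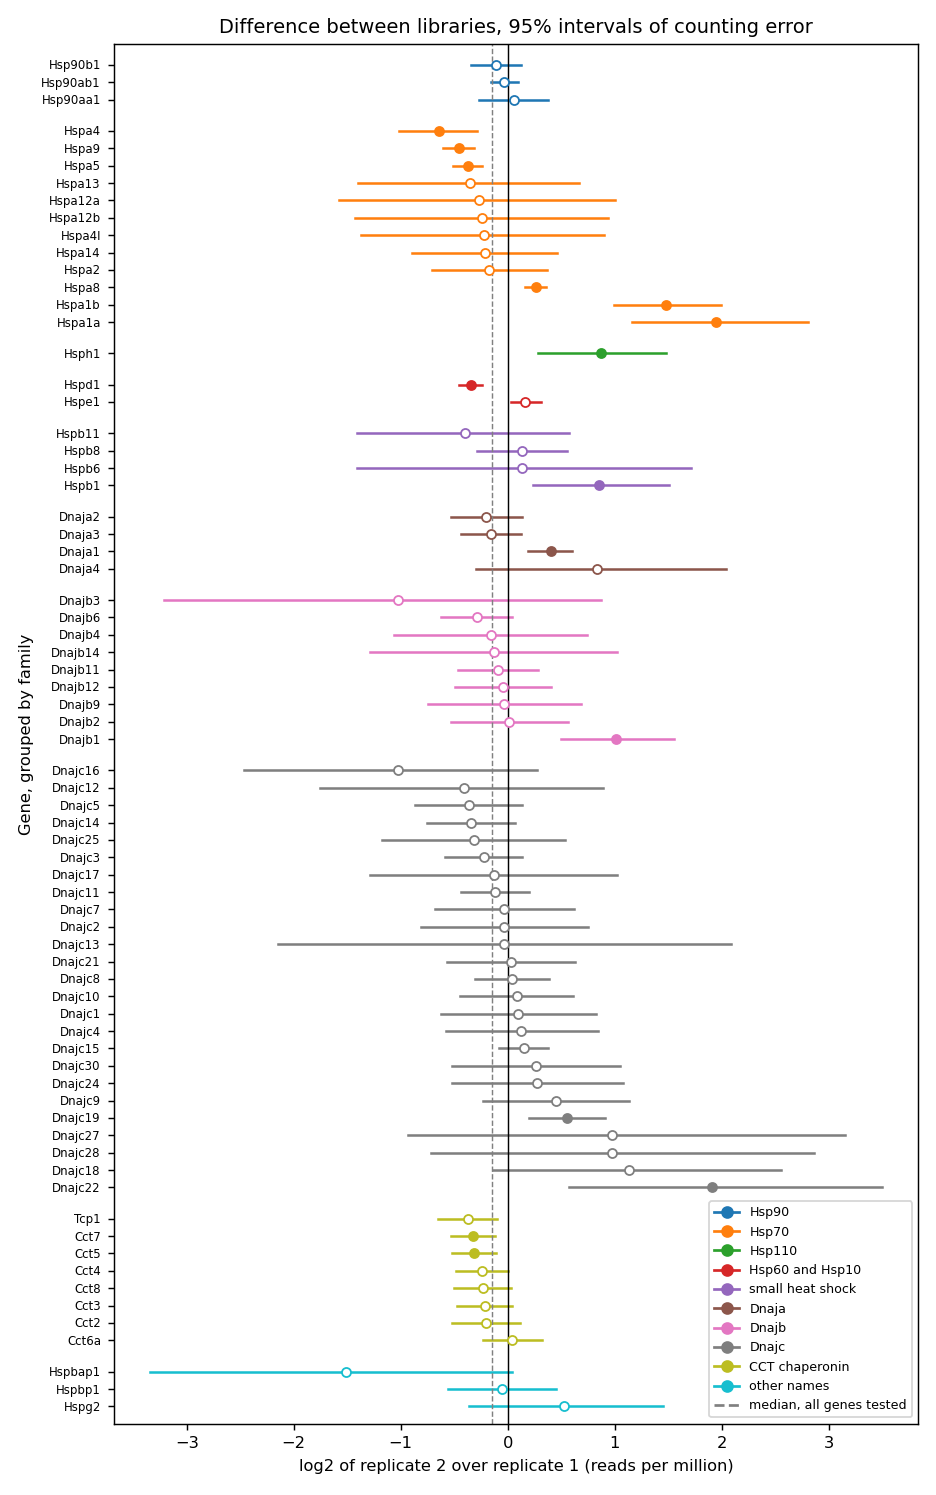
log2 of the ratio of replicate 2 over replicate 1 for the 71 tested genes (horizontal axis), grouped by family on the vertical axis, with 95% intervals of counting error. Filled points passed the exact binomial test, and the dashed line is the median of all genes tested, at -0.15. Members of the Hsp70 family lie on both sides, and 7 of the 8 CCT genes lie below 0.

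The inducible Hsp70 genes were, with Dnajc22, those whose called ratios lay farthest from 1. Hspa1a and Hspa1b are a pair of intronless genes on chromosome 17 (34969190 to 34972156 and 34956436 to 34959238, minus strand, mm10) whose products are made in large amount after heat or other protein damage. Hspa1b had 47 reads in replicate 1 and 134 in replicate 2, or 48.7 and 136 CPM, a ratio of 2.79 (95% interval 1.99 to 3.98; exact binomial, adjusted p = 8.09e-09). Hspa1a had 17 and 67 reads, or 17.6 and 68.0 CPM, a ratio of 3.86 (2.24 to 7.01; exact binomial, adjusted p = 1.87e-06). Both genes were thus low in replicate 1 and high in replicate 2. Their coding sequences, compared position by position without gaps, match at 1890 positions and differ at 36. After the stop codon, where 810 bases follow in Hspa1a and 643 in Hspa1b, the first 24 match, and bases beyond the first difference were not compared. How surely reads were split between the pair was not tested, so their sum is given as well. The sum was 64 and 201 reads, or 66.3 and 204 CPM, a ratio of 3.08.

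The promoters of this pair are shown because the genes moved together. Upstream windows of 250 bases before the start site, taken from RefSeq (GRCm38.p6), matched at 247 of 250 positions. Capitals mark a match to a pair of units of the heat shock element, which heat shock factor is known to bind. Such a match lay in 12.8% of all windows and is not evidence of binding. Each sequence reads 5′ to 3′ on the gene's own strand. The window of Hspa1a is chr17:34972157-34972406 (minus strand), that of Hspa1b is chr17:34959239-34959488 (minus strand), and that of Hspb1, the gene of Hsp25, is chr5:135887669-135887918 (plus strand).
Hspa1a: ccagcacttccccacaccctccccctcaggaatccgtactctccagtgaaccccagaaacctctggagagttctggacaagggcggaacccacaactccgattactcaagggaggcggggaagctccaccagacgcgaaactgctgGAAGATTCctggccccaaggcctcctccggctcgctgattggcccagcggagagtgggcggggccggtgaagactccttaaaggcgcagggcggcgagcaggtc
Hspa1b: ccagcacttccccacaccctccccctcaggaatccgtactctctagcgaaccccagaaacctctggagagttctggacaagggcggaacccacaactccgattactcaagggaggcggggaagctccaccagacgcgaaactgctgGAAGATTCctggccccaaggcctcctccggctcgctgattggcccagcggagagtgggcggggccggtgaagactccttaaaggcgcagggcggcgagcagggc
Hspb1: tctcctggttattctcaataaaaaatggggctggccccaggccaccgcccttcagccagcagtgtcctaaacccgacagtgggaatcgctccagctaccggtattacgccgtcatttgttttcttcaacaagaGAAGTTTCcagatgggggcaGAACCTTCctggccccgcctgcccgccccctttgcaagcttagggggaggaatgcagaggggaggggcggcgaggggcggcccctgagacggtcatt
Both Hspa1 windows held the match at 104 bases before the start, with the same 8 letters, and that of Hspb1 held matches at 117 and 97 bases.

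Dnajb1, Hsph1 and Hspb1, also known to be induced by heat, were higher in replicate 2 as well. They are set together here after their values were seen, and other genes known to be induced by heat were not called in this direction: Hsp90aa1 (ratio 1.04), Hspe1 (1.12), Dnajb4 (0.898) and Cryab (0.620) gave no call, and Hspd1 (0.787) was higher in replicate 1. Dnajb1, the Hsp40 partner of inducible Hsp70, had 46 and 95 reads (47.7 and 96.4 CPM; ratio 2.02, 1.41 to 2.94; exact binomial, adjusted p = 0.00166). Hsph1, an Hsp110 protein that exchanges nucleotide on Hsp70, had 38 and 71 reads (39.4 and 72.1 CPM; ratio 1.83, 1.22 to 2.79; exact binomial, adjusted p = 0.0347). Hspb1, a small heat shock protein that holds unfolded clients, had 34 and 63 reads (35.2 and 64.0 CPM; ratio 1.81, 1.18 to 2.84; exact binomial, adjusted p = 0.0484). Hsp25-ps1, a pseudogene of Hspb1 that the rule leaves out, had 10 and 19 reads. The calls of Hsph1 and Hspb1 were close to the threshold and were lost when spike-in reads set the library size or when no minimum of reads was asked.

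Hspa8 and Dnaja1 differed by less but rested on many more reads. Hspa8, which serves in routine folding and in clathrin uncoating, had 1619 and 1985 reads (1678 and 2015 CPM; ratio 1.20, 1.12 to 1.28; exact binomial, adjusted p = 2.13e-06). Dnaja1, a farnesylated Hsp40 of the cytosol, had 325 and 437 reads (337 and 444 CPM; ratio 1.32, 1.14 to 1.52; exact binomial, adjusted p = 0.00365). Both were higher in replicate 2 in all 7 alternative settings. Among the Dnajc genes, Dnajc19, a partner of the import motor of the mitochondrial inner membrane, had 112 and 168 reads (ratio 1.47, 1.15 to 1.88; adjusted p = 0.0216). Dnajc22, which encodes a DnaJ protein of the membrane, had only 6 and 23 reads (ratio 3.75, 1.49 to 11.3; exact binomial, adjusted p = 0.0302), and its call was lost when known transcript models alone were counted. The hepatocyte sum was 20.8-fold higher in replicate 2 beside all of these, and its part was not tested.

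The 6 chaperones higher in replicate 1 were Hspa9 and Hspd1 of the mitochondrial matrix, Hspa5 of the endoplasmic reticulum, and Hspa4, Cct5 and Cct7 of the cytosol. Hspa9, the mitochondrial Hsp70 that pulls in imported proteins, had 885 and 658 reads (917 and 668 CPM; ratio 0.728, 0.657 to 0.806; exact binomial, adjusted p = 4.03e-08). Hspd1, the Hsp60 subunit, had 1617 and 1300 reads (1676 and 1320 CPM; ratio 0.787, 0.731 to 0.848; exact binomial, adjusted p = 8.08e-09). Hspa5, known as BiP and the main Hsp70 of the endoplasmic reticulum, had 1023 and 806 reads (1060 and 818 CPM; ratio 0.772, 0.703 to 0.847; exact binomial, adjusted p = 1.79e-06). These 3 kept their calls under every setting tried. Hspa4, an Hsp110-type exchange factor of the cytosol despite its name, had 164 and 107 reads (ratio 0.639, 0.496 to 0.820; exact binomial, adjusted p = 0.00658). By name it was counted with the Hsp70 genes in the family sums and figures, as was its relative Hspa4l. Hspa4 lost its call after TMM scaling (exact binomial, adjusted p = 0.0703).

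Hspd1 and its lid, Hspe1 (Hsp10), are neighbours on chromosome 1 (Hspd1 55077835 to 55088243, minus strand; Hspe1 55088132 to 55091307, plus strand). They are read in opposite directions, and the annotated genes overlap by 112 bases at their starts. Hspe1 had 750 and 859 reads, or 777 and 872 CPM, so that it stood higher in replicate 2 while Hspd1 stood higher in replicate 1. Its ratio of 1.12 (1.02 to 1.24) gave no call (adjusted p = 0.150, exact binomial test), but passed after TMM scaling (ratio 1.25, adjusted p = 2.71e-04). The ratio of Hspd1 to Hspe1 was 2.16 in replicate 1 and 1.51 in replicate 2. Upstream of the RefSeq start sites of both genes, and inside Hspd1 as GENCODE annotates it, the stretch chr1:55088051-55088080 (plus strand) holds 4 heat shock element units in a row, and is shown with those units and their spacers in capitals.
Hspe1: acggtccgTTCTAGAACCTTCCGGAAggcc

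The 3-unit form of this element (GAANNTTCNNGAA or TTCNNGAANNTTC, where N is any base, each searched on both strands) lay in 0.466% of all 32851 upstream windows and in 4 of 82 windows of the 63 chaperones that have one (4.88%). The 3 genes with it were Hspd1, Hspe1 and Dnajb6. These windows overlap in pairs, those of Hspd1 with Hspe1 and a pair of Dnajb6, and with overlapping windows counted once the share was 2 of 75 chaperone loci (2.67%) beside 0.464% of all loci. The shorter 2-unit form (GAANNTTC or TTCNNGAA), which the longer form contains, lay in 12.8% of all windows and in 20.7% of chaperone windows (13.3% and 18.7% of loci). It was found for 5 of the 7 chaperones higher in replicate 2 that have a window, 2 of the 5 higher in replicate 1, and 8 of the 46 with no call. The CCAAT box (CCAAT or ATTGG), searched the same way and about as common in chaperone windows (35.4%) as in all windows (33.8%), was split alike, with 6 of 7, 2 of 5 and 15 of 46. Both tallies count Hspa1a and Hspa1b as 2 genes, although their windows match at 247 of 250 positions. Dnajb1 had a window without the heat shock element. A match is a description of letters and not evidence of binding. The 14 chaperones without an entry include Hspa8, Hspa9 and both cytosolic Hsp90 genes. These 30-base stretches of Hsph1 (chr5:149636351-149636380, minus strand) and Dnaja1 (chr4:40722333-40722362, plus strand) show the 2-unit match in capitals. Both matches lie upstream of a RefSeq start site but inside the gene as GENCODE annotates it.
Hsph1: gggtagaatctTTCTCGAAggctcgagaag
Dnaja1: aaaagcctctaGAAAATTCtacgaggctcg

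The CCT chaperonin is a double ring of 8 different subunits in fixed proportion that folds actin and tubulin. All 8 subunit genes were read within a 2.42-fold range of mean levels. Cct5 stood at 417 ± 64.2 CPM, Cct7 at 413 ± 65.5, Cct4 at 299 ± 34.9, Cct3 at 255 ± 27.0, Cct8 at 241 ± 27.5, Tcp1 at 230 ± 41.8, Cct6a at 225 ± 4.67 and Cct2 at 172 ± 17.0. Neighbours in this order differed by less than the larger of their SDs, apart from Cct7 and Cct4, Cct4 and Cct3, and Cct6a and Cct2. The ninth gene, Cct6b, known from testis, had no read in replicate 1 and 1 in replicate 2. Of the 8 subunits, 7 were lower in replicate 2, and Cct6a was not. Cct5 had 446 and 366 reads (ratio 0.804, 0.698 to 0.925; exact binomial, adjusted p = 0.0269), and Cct7 had 443 and 361 (ratio 0.798, 0.693 to 0.919; exact binomial, adjusted p = 0.0214). After TMM scaling 7 of 8 still had ratios under 1, but no CCT gene passed (Cct5 adjusted p = 0.463, Cct7 0.427).

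The Hsp90 genes did not differ past the threshold. Hsp90ab1 had 1092 reads in each library (1132 and 1109 CPM; ratio 0.979, interval 0.900 to 1.07). Hsp90b1, the Hsp90 of the endoplasmic reticulum, had 307 and 291 reads (ratio 0.928, 0.788 to 1.09), of which 212 and 159 held every splice junction of a model. Hsp90aa1, the inducible cytosolic form, had 157 and 166 reads (163 and 169 CPM; ratio 1.04, 0.828 to 1.30), so unlike Hspa1a it was at nearly the same level in both. Reads of Hsp90ab1 outnumbered those of Hsp90aa1 by 6.96 in replicate 1 and 6.58 in replicate 2.

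The remaining families gave few calls. Among the Dnaja genes, Dnaja3, a mitochondrial Hsp40, stood at 224 ± 17.1 CPM and Dnaja2, a cytosolic one, at 157 ± 15.4. Among the Dnajb genes, Dnajb6, a suppressor of polyglutamine aggregation, stood at 160 ± 22.7 CPM, Dnajb11, a partner of BiP, at 124 ± 5.45 and Dnajb12, of the endoplasmic reticulum membrane, at 87.7 ± 2.02. The highest Dnajc genes were Dnajc15, of the mitochondrial inner membrane, at 321 ± 23.6 CPM, Dnajc11, of the mitochondrial outer membrane, at 169 ± 9.74 and Dnajc8, found with the spliceosome, at 147 ± 2.91. Hspb8, a small heat shock protein of chaperone-assisted autophagy, was the highest of its family at 98.9 ± 6.52 CPM, and Hspb11 followed Hspb1 at 20.0 ± 3.92. The remaining Hsp70 genes were all below 100 CPM and gave no call. Hspa2, best known from spermatogenesis, stood at 62.6 ± 5.27 CPM, Hspa14, a ribosome-associated Hsp70, at 40.5 ± 4.22 and Hspa13, of the endoplasmic reticulum, at 18.5 ± 3.17. Hspa4l, a relative of Hspa4, stood at 15.4 ± 1.68 CPM, and the atypical Hspa12b and Hspa12a at 14.4 ± 1.66 and 12.3 ± 1.63. Of the 25 Dnajc genes tested, 23 gave no call, and their mean levels ran from 5.13 CPM (Dnajc13, an endosomal protein) to that of Dnajc15. Several low genes had ratios far from 1 that their few reads could not place: Dnajc18 had 8 and 18 reads (ratio 2.20, 0.912 to 5.86), Dnajc16 had 16 and 8 (0.490, 0.181 to 1.21) and Hspbap1 14 and 5 (0.350, 0.0986 to 1.03). Hspbp1 stood at 69.2 ± 1.74 CPM, Hspg2 at 24.1 ± 6.17 and Hspbap1 at 9.79 ± 6.67.

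A few members were at the limit of detection. Those with fewer than 10 reads in all were Dnajb5 (4 and 2 reads), Dnajb8 (0 and 1), Dnajb13 (0 and 1), Dnajc6 (4 and 3), Hspb2 (7 and 2) and Cct6b. The 7 annotated genes Dnajb7, Dnajc5b, Dnajc5g, Hspa1l, Hspb3, Hspb7 and Hspb9 had no reads, which allows a level of up to 3.11 CPM in replicate 1 and 3.05 CPM in replicate 2 (3 reads, counting error only). Of these, Hspa1l lies beside Hspa1a on the opposite strand of chromosome 17 (34972703 to 34979285).

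The genes that work with these chaperones were examined in 4 lists. Cochaperones of the cytosol were listed together with other genes, among them Hsf1, Hsbp1, Tsc22d3 and Cryab. Of 27 genes of this list tested, 1 was higher in replicate 2 (background 4.35%) and 3 in replicate 1 (background 4.81%). The median log2 ratio was -0.01. The call in replicate 2 was Hsbp1, and Tsc22d3 was among the 3, so the counts are not those of cochaperones alone. Sgta, a cochaperone of tail-anchored protein sorting, was the highest at 488 ± 100 CPM (ratio 0.747, 0.655 to 0.851; exact binomial, adjusted p = 2.68e-04) and was followed by Fkbp4, an immunophilin of steroid receptor complexes, at 392 ± 37.8 CPM with no call. Tsc22d3, a glucocorticoid-induced gene placed in the list, had 250 and 151 reads (ratio 0.592, 0.480 to 0.727), and Fkbp5, another such gene and an immunophilin, had 34 and 13 (ratio 0.374, 0.181 to 0.728). Hsbp1, which binds heat shock factor, had 190 and 260 reads (ratio 1.34, 1.11 to 1.62; exact binomial, adjusted p = 0.0284). Hsf1, the heat shock factor itself, stood at 57.0 ± 5.92 CPM with no call. After TMM scaling the calls of Sgta (adjusted p = 0.0571) and Fkbp5 (0.0638) were lost and Fkbp4 gained one (0.0140).

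Partners within mitochondria gave the most calls. In the list of mitochondrial folding and proteolysis, 5 of 11 genes were higher in replicate 1 (background 4.81% of genes tested) and none in replicate 2, with a median log2 ratio of -0.15, equal to that of all genes. Lonp1, the matrix protease, had 1098 and 822 reads (1138 and 834 CPM; ratio 0.733, 0.669 to 0.803; exact binomial, adjusted p = 1.07e-09), a ratio close to that of Hspa9. The others were Afg3l2, an inner membrane protease (ratio 0.583), Timm44, which tethers mitochondrial Hsp70 to the import channel (0.654), Clpb, a disaggregase (0.702), and Clpx, the unfoldase of the ClpXP protease (0.749). Grpel1, the exchange factor of Hspa9, had 435 and 485 reads with no call. TMM scaling left 3 of the 5 (Clpb and Clpx were lost) and added Grpel1 as higher in replicate 2 (adjusted p = 0.0431).

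No gene of the other lists passed (background 9.17% of genes tested). For the 9 tested partners of CCT, among them the prefoldins Pfdn5 (173 ± 11.3 CPM) and Pfdn1 (103 ± 7.91 CPM), the median log2 ratio was -0.11. For the 20 folding genes of the endoplasmic reticulum it was -0.07, with the disulphide isomerases P4hb at 566 ± 22.8 CPM and Pdia6 at 348 ± 16.0 CPM. Hspa5 was called while none of these 20 genes was, but it had more reads than any of them. Hyou1, with 99 and 71 reads, had a ratio of 0.702 (0.510 to 0.962), and Manf, with 110 and 144, had 1.28 (0.993 to 1.66). A call beside no call thus does not show that Hspa5 differed from these genes. The resident partners of Hspa5 among the chaperones also gave no call: Hsp90b1, Dnajb11, Dnajb9, Dnajc3 and Dnajc10 had ratios between 0.859 and 1.06. These levels include partial and unspliced reads. Reads that held every splice junction of a model numbered 212 and 159 for Hsp90b1 and 107 and 76 for Dnajc3. For Dnajb11 they numbered 120 and 112, for Dnajb9 33 and 31, and for Dnajc10 56 and 58, beside 992 and 768 for Hspa5. Levels from such reads alone were not tested.

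An element known from genes of endoplasmic reticulum stress was found in windows upstream of the RefSeq start sites of 3 chaperones. That of Hspa5 lies inside the gene as GENCODE annotates it, which begins at 34771970. The endoplasmic reticulum stress element (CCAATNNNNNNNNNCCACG or its complement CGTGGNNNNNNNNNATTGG, searched on both strands) lay in 37 of 32851 windows (0.113%) and in those of Hspa5, Hsp90b1 and Dnajc3 (3 of 82 chaperone windows, 3.66%). The windows of Dnajb9, Dnajb11 and Dnajc10, whose products also work in the endoplasmic reticulum, did not hold it. The element contains a CCAAT box. The match is in capitals in these 30-base stretches at chr2:34772020-34772049 (plus strand), chr10:86705632-86705661 (minus strand) and chr14:118937822-118937851 (plus strand).
Hspa5: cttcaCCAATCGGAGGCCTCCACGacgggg
Hsp90b1: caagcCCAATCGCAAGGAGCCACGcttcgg
Dnajc3: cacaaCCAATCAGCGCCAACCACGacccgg
The same letters at both ends, with other letters between, were thus found in all 3 genes. Only Hspa5 was called, but it had the most reads of the 3, so this does not show that they differed.

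Because each long read can span a whole transcript, the forms of each chaperone could be counted from reads that held every splice junction of a model. Of the 77 genes, 51 had at least 20 such reads in each library. In 33 of the 51, 1 transcript held over 90% of these reads. In Hsp90ab1 the annotated transcript Hsp90ab1-201 held 98.7% and 98.2%, in Hspa8 the transcript Hspa8-201 held 98.9% and 98.8%, and in Dnajb1, Dnajb9, Hspa1b and Dnajc30 a single transcript held all of them. A second transcript held at least 10% in 11 members (21.6%), beside 29.2% of the 5155 genes with as many reads. In the share of the main transcript, none of the 47 members tested was called between libraries (Fisher's exact test, Benjamini-Hochberg adjusted over 4817 genes). Of these 4817 genes, 6 or 0.125% passed. No call does not show equal shares: those of Hspbp1 were 36.8% and 51.9%, with 95% Wilson intervals of 25.5% to 49.8% and 38.9% to 64.6%. One of the 47 members tested had an unadjusted p under 0.05. It was Hspd1, whose main transcript held 94.9% and 92.6% (p = 0.0258, adjusted p = 0.946, Fisher's exact test).

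**Figure D3:**
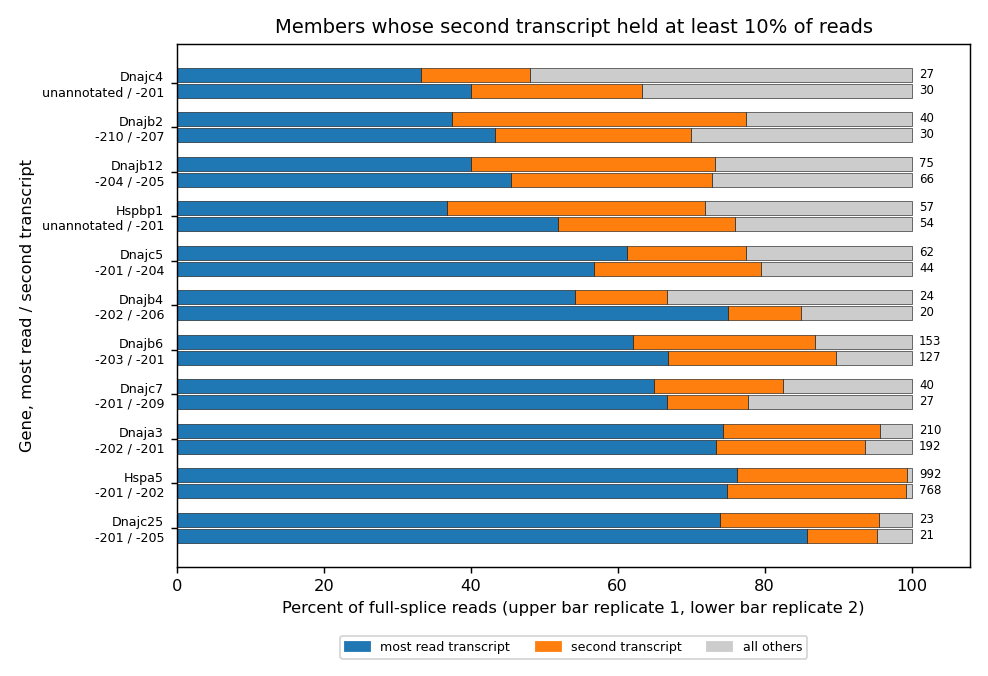
Share of full-splice reads (horizontal axis, percent) of the most read and the second transcript in the 11 members whose second transcript held at least 10%, with 1 bar per library and the number of reads at its right. The shares of Hspa5, Dnaja3 and Dnajb6, which rest on the most reads, lie within a few points of each other in both libraries.

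In Hspa5 the introns of the main forms differ only ahead of the coding sequence. Hspa5-201 held 757 and 575 reads, or 76.3% and 74.9% (95% Wilson intervals 73.6% to 78.9% and 71.7% to 77.8%). Hspa5-202 held 228 and 187 reads, or 23.0% and 24.3%. The second form keeps an 82-base stretch, 34772147 to 34772228 on chromosome 2, that the first removes as an intron, and both encode the same 655 residues. Their annotated ends differ as well, at 34777547 for Hspa5-201 and 34776531 for Hspa5-202, and the forms were compared here by their introns alone. The shares of both forms thus matched between the libraries although the level of Hspa5 differed.

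Dnaja3 and Dnajb6 encode proteins with different ends. Dnaja3-202 (453 residues, known as the short form) held 156 and 141 reads, or 74.3% and 73.4%, and Dnaja3-201 (480 residues, the long form) held 45 and 39, or 21.4% and 20.3%. The long form includes an exon of 117 bases (4705844 to 4705960 on chromosome 16) that the short one skips. Their coding ends after the last shared base are shown with the stop codon in capitals (chr16:4706568-4706590 and chr16:4705844-4705947, plus strand, from GENCODE M21).
Dnaja3-202: gaaagcggtcaactggaaacTAA
Dnaja3-201: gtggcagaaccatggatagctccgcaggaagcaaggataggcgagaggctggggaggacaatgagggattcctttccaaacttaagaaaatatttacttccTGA
Dnajb6-203 (242 residues) held 95 and 85 reads, or 62.1% and 66.9%, and Dnajb6-201 (365 residues, the long form) 38 and 29, or 24.8% and 22.8%. The short form reads past the splice donor that the long form uses and ends within 35 bases, shown with its stop codon in capitals (chr5:29766396-29766430, plus strand).
Dnajb6-203: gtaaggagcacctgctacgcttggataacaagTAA

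Dnajb12 was split among 3 forms that use different ends of the same exon. Dnajb12-204 held 30 reads in each library (40.0% and 45.5%), Dnajb12-205 held 25 and 18 (33.3% and 27.3%) and Dnajb12-201 held 18 and 16 (24.0% and 24.2%). Their introns begin at 59896502, 59896448 and 59896496 on chromosome 10 and end at the same base, 59897490. The first and the last of these exon ends give the same protein of 376 residues, whose stop lies ahead of both, and the other gives 378 residues with a different end. The coding ends are shown for Dnajb12-204 (chr10:59896448-59896471) and Dnajb12-205 (chr10:59897491-59897520), both on the plus strand, with the stop codon in capitals.
Dnajb12-204: gtgcaggcctccctgcatggaTAG
Dnajb12-205: actatgaaatccctggagaatttttggTGA
Dnajb2, known for forms with and without a membrane anchor, was also split. Dnajb2-210 (324 residues) held 15 and 13 reads (37.5% and 43.3%), Dnajb2-207 (277 residues) held 16 and 8 (40.0% and 26.7%), and Dnajb2-202, also of 277 residues, held 6 and 7.

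Other second transcripts were of kinds that do not encode the full protein. Dnajc5, the cysteine string protein of secretory vesicles, had 38 and 25 reads of Dnajc5-201 and 10 and 10 reads of Dnajc5-204 (16.1% and 22.7%), which the annotation marks for nonsense-mediated decay. Dnajc5-204 includes a 75-base exon (chr2:181548926-181549000, plus strand), whose first 30 bases (chr2:181548926-181548955) are shown with its in-frame stop codon in capitals.
Dnajc5-204: gagggcacTGAcactgtgccgagagtgttt
Dnajc25-205, likewise marked for decay, held 5 and 2 reads beside 17 and 18 of Dnajc25-201. Dnajc7-209, a processed transcript, held 7 and 3 reads beside 26 and 18 of Dnajc7-201, which encodes a cochaperone with tetratricopeptide repeats. Dnajb4-206, a retained intron of 1 exon, held 3 and 2 reads beside 13 and 15 of Dnajb4-202. With so few reads, the intervals of these 3 second forms spanned 20 percentage points or more.

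In 3 members the most read transcript was not annotated: Cct6a, Hspbp1 and Dnajc4. Hspbp1, a nucleotide exchange factor of Hsp70, had 21 and 28 reads (36.8% and 51.9%) of a chain whose second exon begins 3 bases later than in Hspbp1-201, which had 20 and 13 reads (35.1% and 24.1%). The introns of these chains, on chromosome 7, end at the same base (4684893) and are 327 and 324 bases long. Another chain, with 14 and 11 reads, has an intron of 411 bases from the same donor. The junction lies ahead of the coding sequence. Dnajc4 had 9 and 12 reads (33.3% and 40.0%) of a chain with an added intron of 276 bases, 6992273 to 6992548 on chromosome 19, beside 4 and 7 reads of Dnajc4-201. A 3-base choice was seen in Dnajc4 as well, within the coding sequence, where 3 and 2 reads of an unannotated chain and 1 and 2 reads of Dnajc4-202 skipped 3 bases. Both junctions are shown as spliced RNA with the bases used or skipped in capitals, the exon before the junction at the left (chr7:4684552-4684905 and chr19:6989570-6989692, minus strand).
Hspbp1-201: agacccggcaagCAGaccttcaagagtcga
Dnajc4-201: acagacacacagCAGctcctgggaaccccc
The same 3 letters were used or skipped at both junctions.

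Cct6a, the zeta subunit of CCT, had no read that matched an annotated transcript. All 439 of its reads fell outside the known models, and the 7 transcripts annotated for it include no protein-coding one. One chain of 13 exons, 2107 bases in all, held 172 reads in replicate 1 and 191 in replicate 2, or 89.6% and 93.2% of full-splice reads. Its exons match those of Cct6a-202 at every internal edge except around the intron that follows exon 10. There exon 10 (129794352 to 129794560 on chromosome 5) is 209 bases long where the annotation has 148, and exon 11 (129844937 to 129845072) is 136 bases where it has 103. The intron between them is 50376 bases long (129794561 to 129844936). A second chain, with 13 and 10 reads, placed this intron at 129794605 to 129844969. The same chain thus led in both libraries. The level of Cct6a was 222 and 228 CPM, with no call (ratio 1.03, 0.850 to 1.25), and after TMM scaling its ratio was 1.15.

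**Figure D4:**
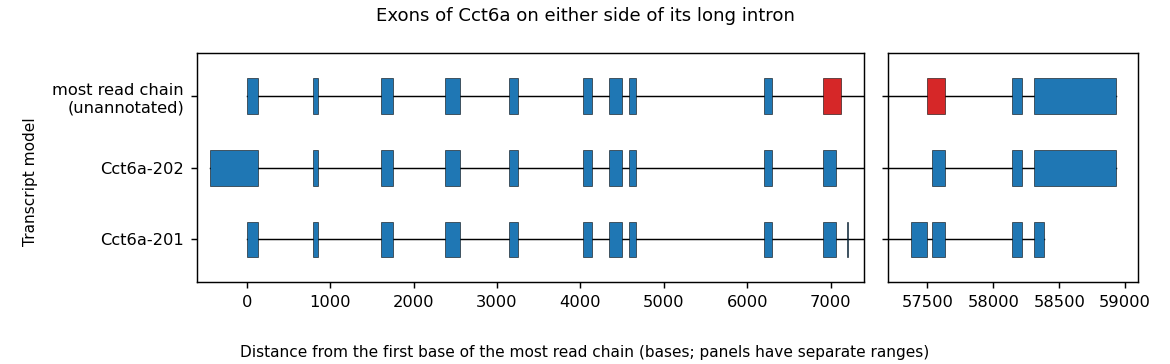
Exons (boxes) of the most read Cct6a chain and of 2 annotated transcripts, against the distance in bases from the first base of that chain, in 2 panels on either side of the long intron. Red boxes are exons with an edge that the annotation lacks, of 209 and 136 bases.

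Hspd1 also had an unannotated chain, with 44 and 47 reads (3.24% and 4.49% of full-splice reads), in which the intron nearest the start of the gene was 1047 bases long (55086942 to 55087988) and not 837 bases. It lies on the side of the gene that faces Hspe1.

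The share of reads that matched a known transcript was 83.2% ± 2.03 for the chaperones together, 84.6% in replicate 1 and 81.8% in replicate 2. For all annotated genes it was 76.3% and 73.7%. The reads outside it were mostly shortened: 8.63% and 10.6% of chaperone reads covered only part of an annotated chain of introns, and 71.6% and 71.5% of these lacked exons at the 5′ side. Both the whole annotation and the chaperones had more such reads in replicate 2, where the value for all genes was 13.1% against 10.4%. Unannotated joins of known splice sites made up 1.99% and 1.96% of chaperone reads, and chains with an unannotated splice site 2.82% and 3.28%.

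**Figure D5:**
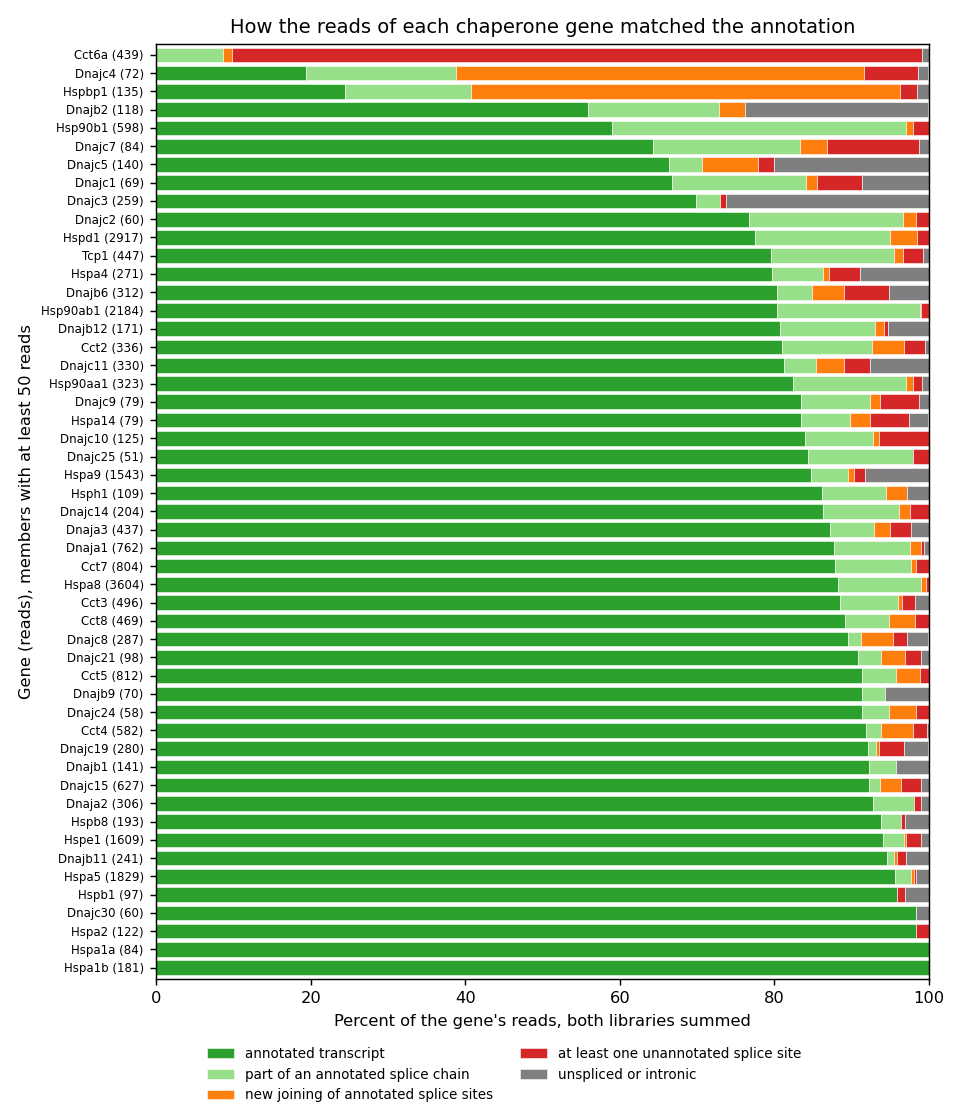
Reads of each of the 51 members with at least 50 reads, in percent of the gene's reads over both libraries (horizontal axis), by how they matched the annotation. Cct6a has no annotated share, Dnajc4 and Hspbp1 are led by new joins of annotated splice sites, and Hsp90b1 has the widest share of partial chains.

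Among the 51 members with at least 50 reads, the lowest known shares belonged to Cct6a (0), Dnajc4 (19.4%), Hspbp1 (24.4%), Dnajb2 (55.9%) and Hsp90b1 (59.0%). The loss in Hsp90b1 came from partial chains, which made up 30.9% of its reads in replicate 1 and 45.4% in replicate 2. A chain of only the last 2 exons (86690840 to 86691748 on chromosome 10) had 72 and 96 reads, or 28.1% of the gene. In Dnajb2, 28 of 118 reads were of the genomic class, which covers unspliced and intronic reads, and in Dnajc3, an inhibitor of eIF2 alpha kinases in the endoplasmic reticulum, 68 of 259 were. The highest known shares belonged to Hspa1a and Hspa1b (100%), Hspa2 (98.4%), Dnajc30 (98.3%) and Hspb1 (95.9%). The first 4 were read as single exons, for which a match needs no splice junction. Over the 50 genes with a known transcript, the known share and the length of that transcript were only weakly related (Spearman's rho -0.19, as a description, since the genes share libraries and depth). In Hspd1, a single-exon stretch at the 3′ end (55077835 to 55078440) had 164 and 159 reads, or 11.1% of the gene, and it enters the level of Hspd1 given above.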

How the data were processed

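Total RNA of 2 adrenal libraries was read as long cDNA reads. Per the file headers and the note in the deposit, the authors aligned reads to mm10 and assigned them to transcript models with TALON and GENCODE M21, and the deposited values are raw counts of reads per model, 1 table per library. The aligner, the TALON version and any filters: not given in the sources used here. Counts were summed per gene and divided by the non-spike reads of each library (964815 and 985101). Spike-in reads were 1.72% and 1.79%. Intervals (95%) cover counting error only. Full-splice reads were those whose model held every junction of its chain. A gene was tested with at least 10 reads, a transcript share with at least 20 full-splice reads per library, using Python 3.11.15 and scipy 1.17.1, and edgeR 4.0.16 (TMM) and DESeq2 1.42.0 supplied library sizes as alternatives. The scripts were tested on simulated data. Coordinates are 1-based, and the GENCODE M21 reference used here is of the same build. The members, the gene lists and the families were chosen with earlier results of these data known. Values were given for members that passed the test, the 3 highest of each family, those whose second transcript held 10% or more, the 5 lowest and highest known shares, unannotated chains of at least 20 reads, and partners that passed or were the 2 highest of a list. The other Hsp70 genes and 4 low genes (Dnajc13, Dnajc16, Dnajc18 and Hspbap1) were added after their values were seen. Results of the marker lists of other cell types are in the report.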

Additional observations from a re-analysis of the deposited data

Results flagged for a closer look

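Reads of unannotated genes on the strand opposite to a chaperone entered no comparison of the report and exceeded 3 reads, the level that a count of 0 allows, in each library. At Dnaja1 there were 36 such reads over both libraries (12 and 24) beside 762 sense reads. At Hspa12a, an atypical Hsp70, there were 33 (17 and 16) beside only 24 sense reads. Dnajc15 had 24 (10 and 14), Dnajb6 had 23 (10 and 13) and Hspa4 had 22 (11 and 11). Nearly all were unspliced, with 6 multi-exon reads at Hspa12a and 2 at Dnajc15. The genes named had the most such reads. Others also exceeded 3 in each library, among them Dnajc18 with 18 (7 and 11) beside 26 sense reads and Hsp90b1 with 18 (10 and 8) beside 598. Whether the counting kept strand is not given in the sources used here.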

How the results depend on the processing

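The count of 15 chaperones called ranged from 12 to 15 over the 7 alternative settings, and no call of the 15 reversed. Those higher in replicate 1 fell from 6 to 3 with TMM and with DESeq2 library sizes, where Hspa4, Cct5 and Cct7 were lost and Hspe1 was added as higher in replicate 2. The chaperones' median log2 ratio of -0.05 was 0.10 with TMM and 0.10 with DESeq2 sizes, -0.11 with spike-in library sizes and -0.14 with known models only. TMM sizes also moved the share of calls higher in replicate 2 from 60.0% to 76.9% for chaperones and from 47.5% to 76.1% for all genes. Counted in known models alone, and scaled to the reads of such models, the family sums were 5015 (Hsp70), 2711 (Hsp60 and Hsp10), 1787 (Dnajc), 1706 (Hsp90), 975 (Dnaja), 683 (Dnajb), 233 (Hspb names) and 35.1 CPM (Hspg2, Hspbp1 and Hspbap1). For CCT, where Cct6a has no such reads and adds nothing, the sum was 2491 CPM, and for Hsp110 it was 67.8 CPM. A threshold of 20% left 6 of the 11 members with a second transcript. Counting partial chains as known raised the known share from 83.2% to 92.8%, and multi-exon models alone gave 86.7%. Without either replicate in turn, the known share lay between 81.8% and 84.6%. No paired analysis was possible because both libraries belong to 1 group. With 2 libraries, a ratio has no spread within a group behind it. Depth limits what can be said of genes with fewer than 100 reads in all, where the interval of a ratio spanned more than 2-fold.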
